A study of Homo sapiens with 12 samples.

Results

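SK-MEL-2 is an established human melanoma line that carries an activated NRAS gene, and entinostat is a benzamide drug that inhibits the class I histone deacetylases HDAC1, HDAC2 and HDAC3. The comparison described here sets 3 arrays of cells given entinostat alone (E, 1 µM) against 3 arrays of cells given the DMSO vehicle, which are 6 of the 12 arrays of the series, chosen by the treatment in their sample titles. The other 6 arrays measured a RAF and a MEK inhibitor, dabrafenib (100 nM) plus trametinib (10 nM), called DT, and all 3 agents together, called DTE. All cells were treated for 24 hours, grown in RPMI medium with serum, and lysed with ERCC spike-in RNA added before extraction. The cultures were of 1 cell line, so no other genetic background was measured. Sample titles name biological replicates whereas the design text speaks of technical triplicates, and every p-value below measures the spread between these arrays, which may be technical.

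Histone deacetylases remove acetyl groups from lysines of histones and of other proteins. Class I enzymes do this on chromatin as subunits of the SIN3, NuRD, CoREST and NCoR complexes, which DNA-bound repressors recruit, among them REST, a repressor of neuronal genes. Histone acetylation is written by acetyltransferases of the p300/CBP, GCN5/PCAF and MYST families and is read by bromodomain proteins, which helps transcription at active promoters and enhancers.

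RNA was measured on Affymetrix arrays as 1 linear intensity per probe set, and 14582 genes were named by 1 probe set each. Differences are log2 of E minus DMSO in the deposited values, with the standard error (SE) of a limma fit over all 12 arrays. The difference after quantile normalization, which gives all arrays the same distribution, follows as the quantile value. Rose and fell mean an adjusted p (limma, Benjamini-Hochberg over all genes) under 0.05 in deposited values, and counts are given in both scales. The scale matters because the arrays were not at 1 level: array medians were 33.4 to 41.3 in DMSO and 39.4 to 51.6 in E, a log2 difference of 0.29 (exact permutation p = 0.2, two-sided, 3 arrays against 3, where 0.1 is the smallest possible). Across genes the arrays of 1 group correlated at 0.993 to 0.994 and E with DMSO arrays at 0.971 to 0.974.

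More genes rose than fell under entinostat in deposited values, and slightly fewer rose than fell after quantile normalization. In deposited values 3033 of 14582 genes rose (20.8%) and 701 fell (4.81%), and at 2-fold or more 625 rose (4.29%) and 63 fell (0.432%). The quantile-normalized values gave 2200 rises (15.1%) and 2380 falls (16.3%), of which 354 (2.43%) and 95 (0.651%) reached 2-fold. Rises thus made up 81.2% of the calls in deposited values, 48.0% after quantile normalization and 30.8% when each array was centred on its median. In both scales together 2040 genes rose (14%) and 699 fell (4.79%). The number of falls was 429 without E replicate 1, 429 without DMSO replicate 1 and 411 without DMSO replicate 2. In these extracts of whole cultures, a change in all cells and a larger change in some cells cannot be told apart.

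When genes were divided into 10 equal bins by mean intensity, rises were most frequent in the sixth bin, with 442 of 1458 genes, and falls in the ninth, with 158 of 1458. After quantile normalization both were most frequent in the ninth, with 335 higher and 390 lower. The median difference over all genes was 0.14, quantile -0.04. Every list below is read against these values and against the shares of all genes, 20.8% rises and 4.81% falls (quantile 15.1% and 16.3%).

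**Figure D1:**
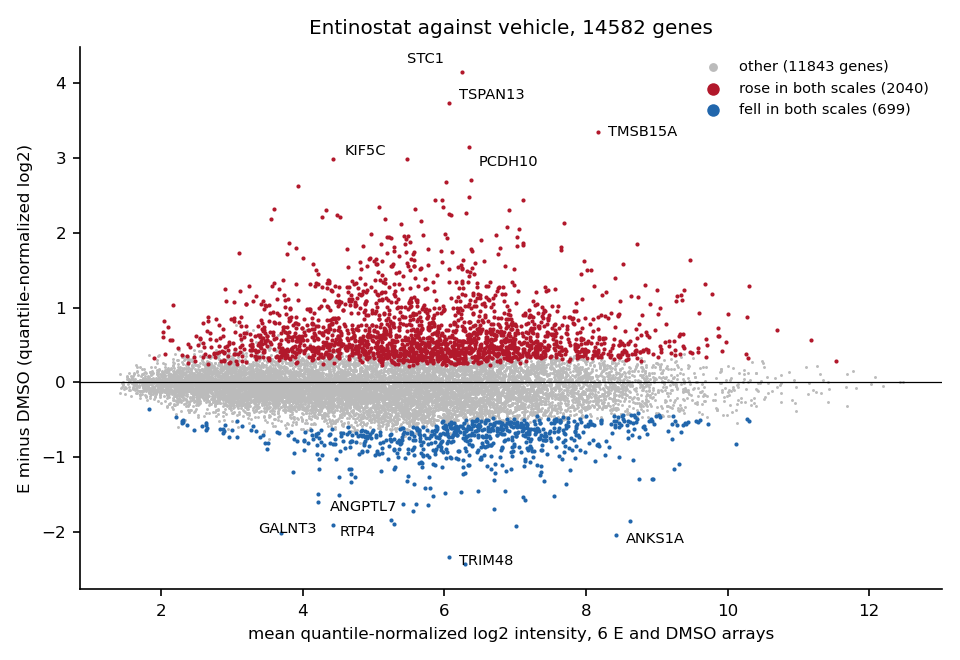
Quantile-normalized log2 difference, E minus DMSO, against the mean quantile-normalized log2 intensity of the 6 arrays, 1 point per gene. The 2040 genes that rose in both scales are red and the 699 that fell are blue, and 10 of the genes described in the text are named: STC1 lies highest among those named and TRIM48 lowest.

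The 15 largest rises are those among genes that passed in both scales and had no overlap between groups. The higher of the E and DMSO means, which for a rise is that of E, also lay above the median gene (36.5). Their separation was thus required by the choice, and genes dim in DMSO could enter. Largest was STC1, a secreted glycoprotein hormone, at 23.3, 19.7 and 13.6 on the DMSO arrays and 419.8, 441 and 423 on the E arrays, which is 23.2-fold (4.54 ± 0.17, quantile 4.15, limma adjusted p = 6.35e-15). TSPAN13, a membrane protein of the tetraspanin family, went from 17.7, 21.4 and 17.1 to 307, 312 and 351 (4.12 ± 0.16, quantile 3.73). In both genes every E array lay far above every DMSO array. PCDH10, a cell adhesion protein of the protocadherin family, read 31.8, 24.7 and 30.5 in DMSO and 284, 326 and 354 in E (3.47 ± 0.15, quantile 3.14). KIF5C, a kinesin motor heavy chain of neurons, read 15.2, 14.1 and 17.9 and 129, 186 and 201 (3.43 ± 0.16, quantile 2.99). TMSB15A, a thymosin that binds actin monomers, had 118, 123 and 97.7 in DMSO and 1182, 1225 and 1165 in E (3.41 ± 0.15, quantile 3.35). Its 3 E arrays lay close together, as did those of STC1.

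For EBLN1, a gene derived from an ancient bornavirus insertion, the DMSO arrays (5.57, 8.62 and 8.79) were not well above an estimated array background of 12.6 to 13.5. Against that background the E arrays (78.0, 90.6 and 79.9) were at least 6.37-fold higher (limma adjusted p = 1.61e-13). The same bound was at least 3.92-fold for GSTA2, an alpha-class glutathione transferase, and at least 4.72-fold for CCDC110. The remaining 7 were CSF1R, the receptor of colony stimulating factor 1 (3.03 ± 0.16, quantile 2.68), COXFA4L3 (3.00 ± 0.15, quantile 2.70), the actin-bundling plastin PLS1 (2.79 ± 0.16, quantile 2.44), the proton-sensing receptor GPR4 (2.79 ± 0.16, quantile 2.35), the membrane-bound transcription factor CREB3L3 (2.78 ± 0.18, quantile 2.44), the vascular endothelial growth factor receptor KDR (2.74 ± 0.18, quantile 2.48) and the kinase CDKL2 (2.72 ± 0.17, quantile 2.31). Adjusted p-values of the 15 lay between 6.35e-15 and 6.65e-11 in deposited values and did not exceed 1.31e-06 after quantile normalization.

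The 15 largest falls were chosen by the same rule. TRIM48, of the tripartite-motif family, went from 195, 199.8 and 179 in DMSO to 34.9, 37.4 and 47.1 in E, 4.84-fold lower (-2.28 ± 0.20, quantile -2.33, limma adjusted p = 7.24e-09). ANKS1A, an ankyrin-repeat adaptor that binds Eph receptors, went from 931, 927 and 775 to 169, 247 and 278 (-1.95 ± 0.16, quantile -2.04). RTP4, a chaperone of G-protein-coupled receptors, read 96.0, 102 and 83.2 in DMSO and 19.2, 27.4 and 33.3 in E (-1.85 ± 0.16, quantile -1.88). In each of these genes E replicate 1 was the lowest array. MIR181A2HG, the transcript that hosts a miR-181 locus, read 95.1, 100.1 and 71.3 and 23.6, 24.2 and 28.2 (-1.80 ± 0.15, quantile -1.84), and ANGPTL7, a secreted angiopoietin-like protein, 114, 109.7 and 96.3 and 24.8, 36.2 and 44.8 (-1.64 ± 0.18, quantile -1.71). The host transcript says nothing about the level of the mature miRNA, which was not measured. GALNT3, which starts O-linked glycosylation, had 59.1, 57.4 and 31.3 in DMSO and fell to an E mean not well above background, at least 3.16-fold lower (limma adjusted p = 7.77e-08).

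Chromatin factors were among the other falls. JADE2, a PHD finger scaffold of a MYST acetyltransferase complex, gave -1.55 ± 0.18, quantile -1.62, and PHF19, a Polycomb-like partner of the PRC2 methyltransferase, gave -1.43 ± 0.14, quantile -1.53. RHOJ, a small GTPase of the Cdc42 group, gave -1.47 ± 0.16, quantile -1.57, and ARHGAP31, which inactivates Rac1 and Cdc42, gave -1.40 ± 0.17, quantile -1.51. The sodium pump regulator FXYD3 (-1.53 ± 0.21, quantile -1.62), the endoplasmic reticulum peroxidase GPX8 (-1.53 ± 0.19, quantile -1.63), the cytokine precursor IL16 (-1.40 ± 0.15, quantile -1.50) and the zinc finger protein ZNF512B (-1.36 ± 0.15, quantile -1.47) fell as well. MYC, a transcription factor that promotes growth, read 261, 277 and 198 in DMSO and 75.0, 106 and 108 in E (-1.35 ± 0.17, quantile -1.45, limma adjusted p = 1.44e-06). Adjusted p-values of the 15 falls lay between 2.60e-09 and 5.37e-06 in deposited values, and each of the 30 genes kept its call without each single E or DMSO array.

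**Figure D2:**
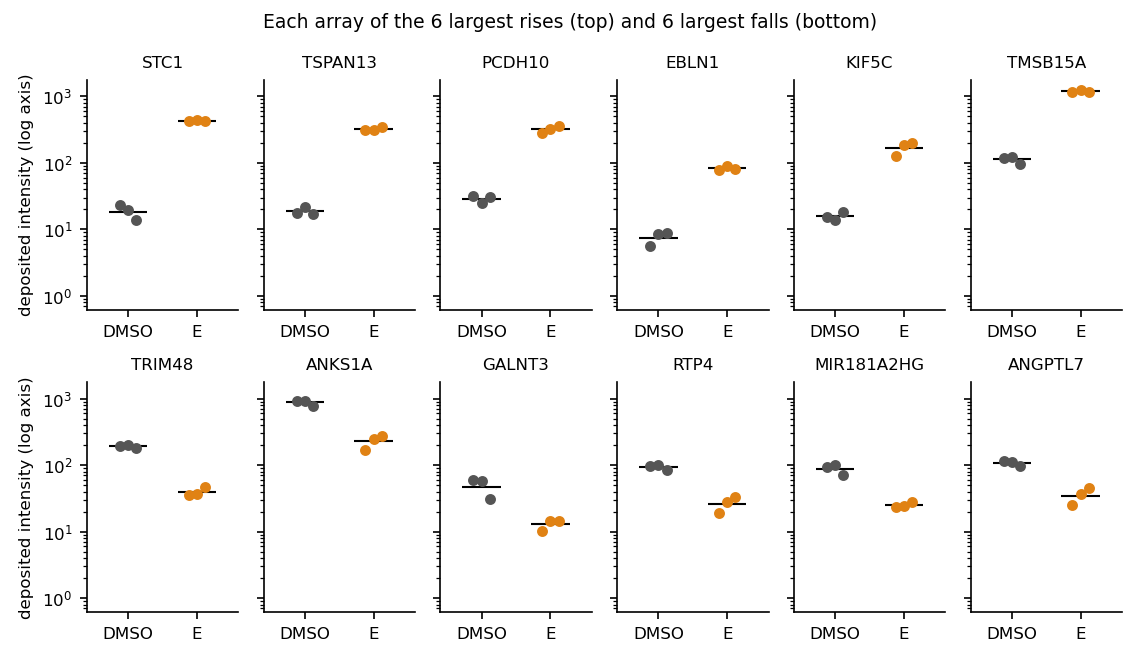
Deposited intensity on a log axis on each of the 3 DMSO arrays (grey) and 3 E arrays (orange) for the 6 largest rises (top) and 6 largest falls (bottom), with a line at the geometric mean. The choice of genes required that E and DMSO arrays do not overlap, and the sizes run from 23.2-fold higher (STC1) to 4.84-fold lower (TRIM48).

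Transcripts of the target enzymes were slightly higher, and those of several acetyltransferases lower. Transcripts of HDAC1 rose (0.51 ± 0.15, quantile 0.41, limma adjusted p = 0.0117), from 159, 165 and 131 on the DMSO arrays to 187, 209 and 253 on the E arrays. HDAC3 went from 168, 168 and 143 to 210.3, 243 and 234 (0.52 ± 0.14, quantile 0.43, adjusted p = 0.00789), and HDAC2 from 53.1, 52.6 and 40.1 to 54.7, 65.5 and 81.8 (0.46 ± 0.16, quantile 0.20, adjusted p = 0.0391). The groups did not overlap in any of the 3 genes, though the lowest E array of HDAC2 was close to its highest DMSO array, and HDAC2 did not pass after quantile normalization (adjusted p = 0.169). HDAC1 lost its call without E replicate 3 (limma adjusted p = 0.0746) or DMSO replicate 3 (0.0638). HDAC2 lost it without E replicate 2 (0.0823), E replicate 3 (0.214) or DMSO replicate 3 (0.186). HDAC8, the remaining class I enzyme, gave 0.21 ± 0.15, quantile 0.14 (adjusted p = 0.307). Among the measured class I enzymes and their corepressor partners 7 of 29 measured members rose and 1 fell (quantile 5 and 7), with a median difference of 0.15, quantile 0.03. This share of rises is close to the 20.8% of all genes. With single arrays left out, the count of rises was 4 without E replicate 2 and 3 without E replicate 3 or DMSO replicate 3. The count of falls was 0 without E replicate 1, E replicate 2, DMSO replicate 1 or DMSO replicate 2 and 2 without E replicate 3. The number of falls after quantile normalization was 4 without DMSO replicate 2 or DMSO replicate 3. CHD5, a chromatin remodeller of the NuRD family, rose (0.81 ± 0.16, quantile 0.44). MTA1, a NuRD subunit, fell (-0.40 ± 0.14, quantile -0.51), with overlapping groups, but lost its call without any one of E replicates 1 and 2 and DMSO replicates 1 and 2.

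Of the acetyltransferases and bromodomain readers, by contrast, 0 of 20 measured members rose and 6 fell (quantile 2 and 11), with a median difference of -0.15, quantile -0.25, where 4.81% of all genes fell in deposited values and 16.3% were lower after quantile normalization. KAT2B (PCAF), an acetyltransferase of the SAGA type, went from 1170.1, 1192 and 945 to 435, 554 and 656 (-1.02 ± 0.15, quantile -1.16, limma adjusted p = 1.54e-05). Its paralog KAT2A (GCN5) went from 499, 511 and 366 to 238, 282 and 327 (-0.70 ± 0.15, quantile -0.77). No E array reached a DMSO array in either gene. The MYST enzymes KAT6B (-0.95 ± 0.14, quantile -1.07) and KAT5 (-0.66 ± 0.15, quantile -0.80) fell too, as did BPTF, a bromodomain subunit of the NURF remodeller (-0.50 ± 0.15, quantile -0.55), and CREBBP (-0.39 ± 0.14, quantile -0.44, adjusted p = 0.0453), whose groups overlapped. EP300, the paralog of CREBBP, gave -0.37 ± 0.15, quantile -0.47 and passed only after quantile normalization (adjusted p = 0.0632 in deposited values, 0.000378 in quantile ones). Members that were higher only after quantile normalization were BRWD3 (0.41 ± 0.16, quantile 0.34) and PHIP (0.39 ± 0.17, quantile 0.31). Leaving out 1 array at a time, the quantile count of rises was 1 without E replicate 1, E replicate 3 or DMSO replicate 3 and 0 without DMSO replicate 2.

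The promoter windows of genes that rose were richer in GC boxes, the letters GGGCGG on either strand, which Sp-family factors bind, than those of all genes. Of 10562 genes with a RefSeq window 60.4% held one, as did 72.7% of 1573 genes that rose in both scales and 62.8% of 548 that fell. Among genes above the median intensity the shares were 70.7%, 75.5% and 64.3%, a smaller gap between rises and all genes. Of the 275 genes with a window that rose 2-fold in both scales 68.0% held a GC box. This is above the 60.4% of all genes but below the 72.7% of all rises. The E-box CACGTG, which MYC binds, was in 8.99% of all 10562 windows, 7.69% of those of all rises and 14.4% of those of all falls. Among the 43 genes that fell 2-fold with a window it was in 6.98%, below the share of all genes. Above the median intensity the E-box was in 10.2% of all windows, 8.13% of those of rises and 14.8% of those of falls. These shares are descriptions with no test, and across the whole set of 35116 RefSeq windows a share of 45.0% held a GC box and 7.26% an E-box. Windows of TSPAN13, a rise, and KAT2B, a fall, are shown with GC boxes in capitals, from RefSeq (GRCh38.p14), 5′ to 3′: TSPAN13 (chr7:16753505-16753804, plus strand) holds 3 and KAT2B (chr3:20040196-20040495, plus strand) 4.
TSPAN13: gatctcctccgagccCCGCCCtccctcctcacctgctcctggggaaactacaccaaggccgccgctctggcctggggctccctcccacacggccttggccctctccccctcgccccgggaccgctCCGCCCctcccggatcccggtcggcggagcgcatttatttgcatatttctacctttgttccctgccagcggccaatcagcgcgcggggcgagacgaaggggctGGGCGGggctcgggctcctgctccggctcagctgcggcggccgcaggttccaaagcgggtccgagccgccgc
KAT2B: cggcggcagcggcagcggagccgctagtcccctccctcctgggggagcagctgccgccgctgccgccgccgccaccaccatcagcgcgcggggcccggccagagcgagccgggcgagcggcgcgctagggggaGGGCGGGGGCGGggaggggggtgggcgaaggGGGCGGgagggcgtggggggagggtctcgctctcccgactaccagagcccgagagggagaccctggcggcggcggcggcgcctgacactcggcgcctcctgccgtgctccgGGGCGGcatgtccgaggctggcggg

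The largest run of neighbouring genes that moved together was the beta protocadherin cluster, adhesion proteins encoded side by side and expressed in combinations on neurons. This family, picked after the values were seen, had 19 named members, of which 15 rose and 0 fell in both scales, with a median difference of 0.81, quantile 0.71. A block of 9 genes, from PCDHB2 to PCDHB16 in the order along the chromosome, rose without a gap, and no other run of neighbours among the measured genes was longer than 6. PCDHB4 went from 18.3, 15.7 and 16.8 to 112, 103 and 96.8 (2.62 ± 0.15, quantile 2.18, limma adjusted p = 1.13e-11). PCDHB5, the brightest member, went from 178, 223 and 169 to 483, 515 and 607 (1.5 ± 0.14, quantile 1.45). The E arrays lay above all DMSO arrays in these genes and in 15 of the 19 members, where 27.0% of all genes did. PCDHB3 (1.71 ± 0.15, quantile 1.49), PCDHB6 (1.36 ± 0.14, quantile 1.16) and PCDHB2 (1.19 ± 0.16, quantile 1.08) followed. PCDHB1 at one end of the cluster (9.45, 10.9 and 9.34 in DMSO, 9.14, 12.9 and 13.9 in E) did not stand well above background in either group. PCDHB9 (70.3, 70.8 and 49.4 and 54.1, 77.8 and 90.1, 0.21 ± 0.18, quantile -0.01) and PCDHB11 (0.20 ± 0.17, quantile -0.08) did not pass, nor did the pseudogene PCDHB19P (0.47 ± 0.20, quantile 0.18). PCDHB13, PCDHB15 and PCDHB18P lost their calls in deposited values without E replicate 3 or DMSO replicate 3, PCDHB1 passed without E replicate 1, and PCDHB19P passed without E replicate 1 or DMSO replicate 2. These genes are close copies, and whether a probe set bound transcripts of more than 1 of them was not tested.

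The promoter windows of these genes, 250 bases before to 50 after the RefSeq start, are shown because the cluster moved together: 14 of the 19 members had one. A search made after the values were seen for the 9-base word found in the most windows gave GGTGGCGCT, which stood in 13 of 14 and not in that of PCDHB1, and in 0.501% of all 35116 windows of that length on either strand. It is in capitals below in PCDHB4 and PCDHB5, which rose, and in PCDHB9, which did not, and is absent from PCDHB1. So members that rose and one that did not share it, and a match is not a site. Windows of the family held 5 to 12 CpG dinucleotides, against a median of 14 in all 35116 windows and of 22 in those of the 10562 measured genes. Sequences are from RefSeq (GRCh38.p14), 5′ to 3′: PCDHB1 (chr5:141051124-141051423, plus strand), PCDHB4 (chr5:141121568-141121867, plus strand), PCDHB5 (chr5:141134956-141135255, plus strand) and PCDHB9 (chr5:141186911-141187210, plus strand).
PCDHB1: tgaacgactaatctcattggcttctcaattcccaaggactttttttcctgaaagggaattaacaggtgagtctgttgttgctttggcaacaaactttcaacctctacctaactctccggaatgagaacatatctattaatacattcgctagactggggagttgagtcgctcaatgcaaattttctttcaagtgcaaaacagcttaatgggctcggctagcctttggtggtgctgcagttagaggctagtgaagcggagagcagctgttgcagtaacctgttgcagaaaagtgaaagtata
PCDHB4: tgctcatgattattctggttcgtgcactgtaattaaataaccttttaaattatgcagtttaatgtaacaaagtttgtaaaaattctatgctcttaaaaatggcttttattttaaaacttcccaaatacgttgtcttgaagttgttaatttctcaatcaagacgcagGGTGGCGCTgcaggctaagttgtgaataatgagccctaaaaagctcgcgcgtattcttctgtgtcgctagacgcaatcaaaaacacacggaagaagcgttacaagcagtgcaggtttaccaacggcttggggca
PCDHB5: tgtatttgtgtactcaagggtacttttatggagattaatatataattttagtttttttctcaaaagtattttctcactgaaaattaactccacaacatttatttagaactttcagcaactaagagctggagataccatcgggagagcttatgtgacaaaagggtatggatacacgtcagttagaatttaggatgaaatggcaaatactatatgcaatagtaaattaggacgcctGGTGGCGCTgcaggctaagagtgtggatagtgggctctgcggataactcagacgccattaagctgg
PCDHB9: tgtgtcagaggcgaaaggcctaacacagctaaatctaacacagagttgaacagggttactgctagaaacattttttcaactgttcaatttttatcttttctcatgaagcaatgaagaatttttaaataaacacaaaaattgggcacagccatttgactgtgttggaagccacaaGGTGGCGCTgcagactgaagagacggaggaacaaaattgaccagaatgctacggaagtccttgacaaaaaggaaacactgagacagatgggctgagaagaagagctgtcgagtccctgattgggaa

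**Figure D3:**
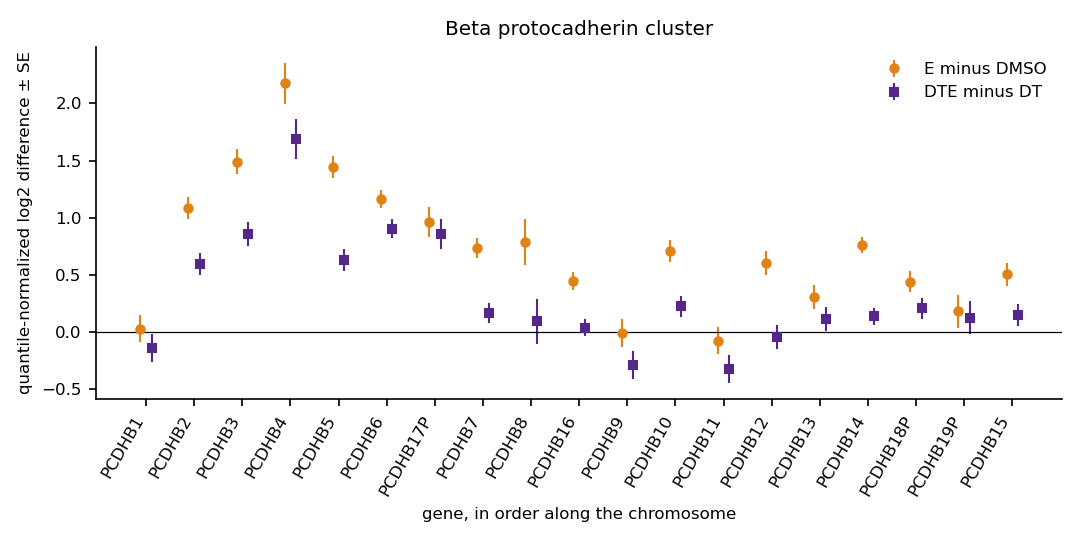
Quantile-normalized log2 difference with its SE for each of the 19 beta protocadherins in their order along the chromosome, E minus DMSO (circles) and DTE minus DT (squares). The E differences peak at PCDHB4 (2.18) and are near 0 at PCDHB1, PCDHB9 and PCDHB11, and the DTE differences lie lower.

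Cadherins outside that cluster also rose: 12 of 21 measured members rose and 0 fell (quantile 9 and 1), with a median difference of 0.46, quantile 0.21. Besides PCDH10 they included PCDH17, which went from 91.0, 99.6 and 82.4 to 296, 345 and 409.6 (1.94 ± 0.14, quantile 1.83), and PCDH9 (2.08 ± 0.15, quantile 1.65), delta protocadherins of the nervous system. PCDH18 was at least 3.00-fold higher (limma adjusted p = 5.35e-09). Of these 21 cadherins, only 9 were above background in DMSO and 12 in E. In turn without each array, the number of falls after quantile normalization was 0 without E replicate 1, DMSO replicate 2 or DMSO replicate 3. Across the cues and receptors that steer growing axons 25 of 41 measured members rose and 2 fell (quantile 14 and 5), with a median difference of 0.49, quantile 0.20. SLIT2, a secreted repellent, was not well above background in DMSO (10.7, 8.02 and 7.95) and read 53.9, 65.0 and 51.0 in E, at least 4.34-fold higher (adjusted p = 1.04e-11). UNC5B, a netrin receptor, went from 33.4, 34.7 and 21.4 to 83.9, 111 and 124 (1.84 ± 0.18, quantile 1.5), and the Eph receptors EPHB3 (1.33 ± 0.17, quantile 0.93) and EPHA2 (1.01 ± 0.14, quantile 0.93) rose. PLXNB3, a semaphorin receptor, moved the other way, from 91.0, 97.7 and 68.3 in DMSO to 40.8, 30.5 and 45.2 in E (-1.14 ± 0.16, quantile -1.25, adjusted p = 9.53e-06). After dropping arrays one by one, the count of falls was 1 without E replicate 1, DMSO replicate 1 or DMSO replicate 2. The number of rises after quantile normalization was 9 without E replicate 2. The fall that was lost was that of NRP2, a coreceptor of semaphorins (-0.48 ± 0.15, quantile -0.52).

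Transcripts for synaptic vesicle and neuronal cytoskeleton proteins were often higher, where 20.8% of all genes rose and 15.1% did after quantile normalization. In the vesicle list 22 of 43 measured members rose and 0 fell (quantile 19 and 1), with a median difference of 0.42, quantile 0.24, led by synapsin SYN1 (2.57 ± 0.17, quantile 2.25), the calcium sensor SYT1 (1.66 ± 0.14, quantile 1.27) and the priming factor UNC13A (1.5 ± 0.16, quantile 1.10). For SYP, synaptophysin, the brighter of 2 probe sets gave 1.59 and the other 0.12. Across the left-out arrays, the quantile count of falls was 0 without E replicate 2, DMSO replicate 1 or DMSO replicate 2. In the cytoskeleton list 17 of 33 measured members rose and 0 fell (quantile 19 and 3), with a median difference of 0.46, quantile 0.34, with MAP2 (2.48 ± 0.15, quantile 2.30) and tau, MAPT (2.35 ± 0.16, quantile 1.95), beside KIF5C. With single arrays left out, the number of falls after quantile normalization was 1 without E replicate 1, E replicate 2, DMSO replicate 2 or DMSO replicate 3. REST, the repressor of many such genes, gave -0.09 ± 0.15, quantile -0.19 (limma adjusted p = 0.734). Among actin-binding proteins 13 of 33 measured members rose and 0 fell (quantile 12 and 2), with a median difference of 0.27, quantile 0.06, among them TMSB15A, PLS1, the severing protein SCIN (1.14 ± 0.16, quantile 0.78) and the calponin CNN2 (0.84 ± 0.13, quantile 0.73). Leaving out 1 array at a time, the quantile count of falls was 1 without E replicate 1, DMSO replicate 1 or DMSO replicate 2. A family of exchange factors for Rac and Cdc42, the DOCK proteins, chosen after the values were seen, had 5 of 10 members that rose and 0 that fell (quantile 6 and 1), led by DOCK11 (1.42 ± 0.18, quantile 1.11) and DOCK3 (0.99 ± 0.14, quantile 0.90).

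Tetraspanins, membrane organizers of which TSPAN13 is one, were often higher. Of this family 15 of 28 measured members rose and 0 fell (quantile 13 and 2), with a median difference of 0.44, quantile 0.27, a share of rises above the 20.8% of all genes, though no test of that share was run. TSPAN33 went from 15.5, 18.1 and 23.4 to 97.6, 96.4 and 98.5 (2.38 ± 0.16, quantile 1.94), and TSPAN12 gave 1.57 ± 0.15, quantile 1.17. TSPAN2 was at least 1.98-fold higher (limma adjusted p = 1.78e-07). In turn without each array, the number of falls after quantile normalization was 1 without E replicate 1 or DMSO replicate 2.

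Surface ligands that immune cells read were higher in E. On the list of checkpoint and costimulatory ligands 11 of 15 measured members rose and 0 fell (quantile 9 and 0), with a median difference of 0.77, quantile 0.43. CD70, a costimulatory ligand, went from 61.4, 64.5 and 54.4 to 112, 149 and 163 (1.22 ± 0.14, quantile 1.00). CD47, which signals to macrophages not to engulf a cell, went from 409, 407 and 406 to 765, 747 and 841 (0.94 ± 0.13, quantile 0.90). Neither gene overlapped between groups. CD274, which encodes PD-L1, was dim, at 16.1, 15 and 13.4 in DMSO and 37.1, 33.0 and 22.4 in E (1.03 ± 0.16, quantile 0.67, limma adjusted p = 2.22e-05). The B7 family ligands ICOSLG (0.89 ± 0.16, quantile 0.51) and CD276 (0.77 ± 0.14, quantile 0.52) rose, whereas PDCD1LG2, which encodes PD-L2, read 13.1, 13.5 and 13.5 in DMSO and 9.21, 13.4 and 11.6, not well above background, in E (adjusted p = 0.342). VTCN1 and VSIR were called in deposited values and not after quantile normalization (adjusted p = 0.0871 and 0.436).

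In the antigen presentation list 6 of 13 measured members rose and 3 fell (quantile 4 and 3), with a median difference of 0.23, quantile 0.12, and the members that rose were not peptide presenters of class I but ligands of the NKG2D receptor of natural killer cells, with the lipid presenter CD1D (0.62 ± 0.14, quantile 0.29, quantile adjusted p = 0.0641). All 5 NKG2D ligands that were measured and on this list passed upward in deposited values. ULBP3 went from 13, 12 and 13.8 to 37.4, 48.4 and 46.9, at least 3.39-fold over background (limma adjusted p = 5.38e-09). MICA read 124, 119 and 114 in DMSO and 195, 179 and 200.3 in E (0.69 ± 0.13, quantile 0.57), and MICB 90.2, 72.4 and 65.2 and 109, 112 and 133 (0.64 ± 0.14, quantile 0.47). The E arrays lay above the DMSO arrays for each. ULBP1 was not well above background in either group (3.34, 3.43 and 3.14 in DMSO, 6.11, 5.61 and 4.13 in E), so it has no fold here. ULBP2 gave 0.75 ± 0.22, quantile 0.39 with a quantile adjusted p of 0.193. Genes of the ULBP group are close copies, and cross-binding of their probe sets was not tested. The falls were in the peptide loading pathway: the tapasin gene TAPBP (-0.46 ± 0.14, quantile -0.54), its relative TAPBPL (-0.41 ± 0.15, quantile -0.54) and the trimming peptidase ERAP2 (-0.51 ± 0.17, quantile -0.60, with overlapping groups). Each lost its call without at least 1 array, TAPBP without E replicate 1 or DMSO replicate 2. After dropping arrays one by one, the count of falls was 0 without E replicate 1 or DMSO replicate 2 and 1 without E replicate 2 or DMSO replicate 1. B2M, the light chain of class I molecules, gave 0.09 ± 0.14, quantile 0.06 (adjusted p = 0.671).

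Melanocyte genes were mixed, with more lower than higher. Of the lineage list 2 of 28 measured members rose and 4 fell (quantile 1 and 11), with a median difference of -0.03, quantile -0.22. Over all genes 20.8% rose and 4.81% fell (quantile 15.1% and 16.3%). ERBB3, a neuregulin receptor, went from 1011, 1056 and 823 to 371, 423 and 474 (-1.19 ± 0.14, quantile -1.29, limma adjusted p = 9.80e-07). The melanosome proteins went both ways: PMEL, which forms the fibrils of the melanosome, rose from 684, 779.7 and 589.8 to 944, 1202 and 1120.3 (0.67 ± 0.15, quantile 0.65), and MLANA fell from 256, 299.7 and 245 to 145, 193 and 219 (-0.54 ± 0.15, quantile -0.62). Both pairs of groups were separate. MITF, the transcription factor that directs melanocyte genes, read 574, 537 and 454 in DMSO and 319.7, 403 and 488 in E with overlapping groups (-0.39 ± 0.15, quantile -0.46, adjusted p = 0.0657, quantile adjusted p = 0.000757). SOX10 was alike (-0.37 ± 0.16, quantile -0.42, adjusted p = 0.0950, quantile adjusted p = 0.00652), and the pigment enzyme TYR gave -0.08 ± 0.16, quantile -0.12 (adjusted p = 0.767). Across the left-out arrays, the count of rises was 4 without E replicate 1 and 1 without DMSO replicate 1. The count of falls was 1 without E replicate 1, 7 without E replicate 3 and 2 without DMSO replicate 1 or DMSO replicate 2. The number of rises after quantile normalization was 2 without DMSO replicate 2. MLANA lost its call without E replicate 1 (adjusted p = 0.0647) or DMSO replicate 2 (0.0700). Melanocyte markers were present in all arrays: all 10 measured markers of 11 were above background, with summed intensities of 5482 to 6292 in DMSO and 4645 to 6648 in E.

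Among neural crest and other developmental transcription factors 43 of 128 measured members rose and 3 fell (quantile 24 and 12), with a median difference of 0.25, quantile 0.03. After quantile normalization the rises are near the 15.1% of all genes and the falls below the 16.3%. POU4F1, a factor of sensory neurons, rose (1.59 ± 0.19, quantile 1.18), as did GLI1, a target and effector of Hedgehog signalling (1.13 ± 0.16, quantile 0.75), DLX6 (0.98 ± 0.14, quantile 0.63) and HAND1 (0.92 ± 0.13, quantile 0.54). SNAI2, a neural crest factor, fell from 302, 362 and 312 to 186, 179 and 214 (-0.75 ± 0.14, quantile -0.86), without overlap, and FOXD3 (-0.59 ± 0.15, quantile -0.79) fell too. With single arrays left out, the count of falls was 6 without E replicate 3.

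Most fatty acid elongases rose, and a minority of glutathione genes. Over all genes 20.8% rose and 4.81% fell, and after quantile normalization 15.1% were higher and 16.3% lower. The fatty acid elongases, a family of 7 measured genes picked after the values were seen, had 5 that rose and 0 that fell in both scales, with a median difference of 1.45, quantile 1.05. ELOVL2, which extends polyunsaturated fatty acids, went from 138, 159 and 116 to 479, 490.2 and 512 (1.85 ± 0.14, quantile 1.77, limma adjusted p = 7.02e-10). ELOVL7 (2.11 ± 0.19, quantile 1.74) and ELOVL3 (1.45 ± 0.16, quantile 1.05) rose too, and ELOVL4 was at least 5.13-fold higher (adjusted p = 2.25e-10). FASN, which makes the chains that elongases extend, fell (-0.78 ± 0.16, quantile -0.85). In the glutathione and detoxification list 11 of 31 measured members rose and 2 fell (quantile 10 and 6), with a median difference of 0.21, quantile 0.09. The quantile falls of this list were near the share of all genes. Beside GSTA2, the NRF2 targets SRXN1 (1.21 ± 0.14, quantile 1.05) and TXNRD1 (1.14 ± 0.15, quantile 1.01) rose, while GPX8 and TXN2, mitochondrial thioredoxin (-0.49 ± 0.15, quantile -0.59), fell. Leaving out 1 array at a time, the count of falls was 1 without E replicate 1, E replicate 2, DMSO replicate 1 or DMSO replicate 2. Of the metallothioneins 4 of 12 measured members rose and 0 fell (quantile 3 and 0), with a median difference of 0.13, quantile 0.04, with MT1F (1.35 ± 0.13, quantile 1.22) and MT1X (0.99 ± 0.17, quantile 0.92), and these genes are close copies too. In the list of matrix proteins and their proteases 10 of 27 measured members rose and 2 fell (quantile 11 and 4), with a median difference of 0.22, quantile 0.04. Here too the quantile falls were near the share of all genes. SPP1, osteopontin, went from 129, 136 and 106 to 427, 623 and 706 (2.22 ± 0.16, quantile 2.12), NID2 gave 2.00 ± 0.18, quantile 1.59 and THBS1 1.29 ± 0.14, quantile 1.32, whereas the membrane protease MMP14 fell from 191, 208 and 156 to 68.2, 101 and 106 (-1.03 ± 0.17, quantile -1.12).

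**Figure D4:**
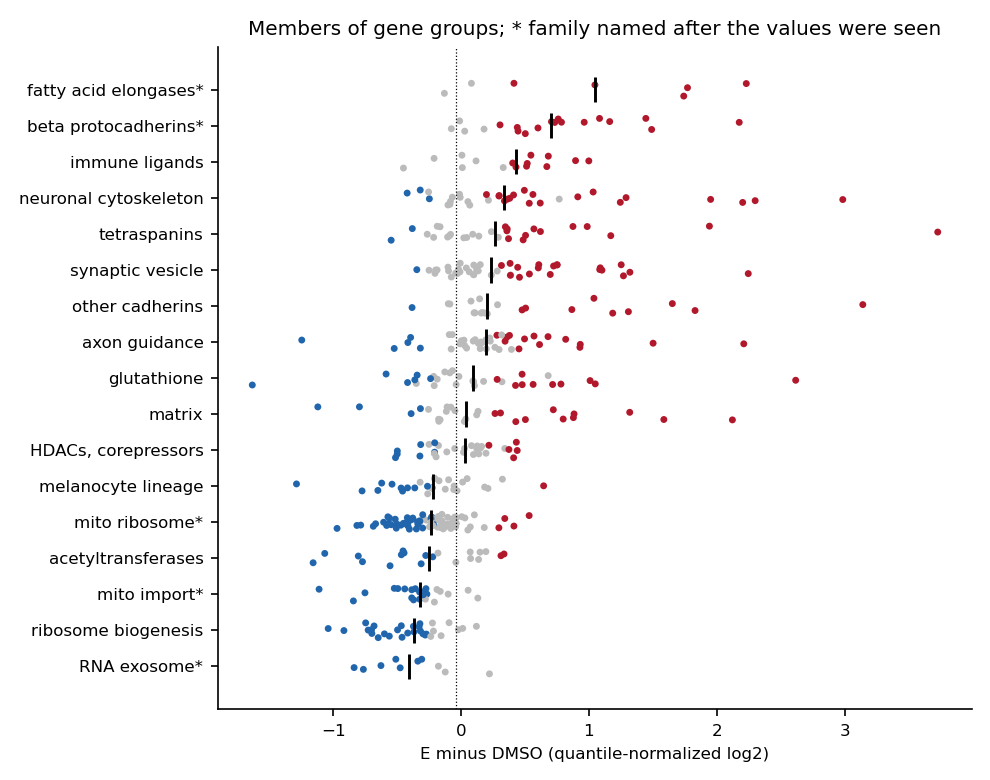
Quantile-normalized log2 difference, E minus DMSO, for each measured member of 17 gene groups, with the group median as a bar and the median of all genes as a dotted line. Red and blue points passed the test upward and downward in quantile-normalized values, and families marked with an asterisk were named after the values were seen. Medians run from 1.05 for the fatty acid elongases to -0.41 for the RNA exosome.

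Genes that make and process RNA and that build mitochondria were often lower, and more of them were called after quantile normalization than before. The latter holds for all genes too, of which 4.81% fell in deposited values and 16.3% were lower after quantile normalization. Of all genes 20.8% rose, and 15.1% were higher after quantile normalization. For ribosome biogenesis 0 of 30 measured members rose and 10 fell (quantile 0 and 22), with a median difference of -0.25, quantile -0.37. MYBBP1A, a nucleolar protein, went from 147, 173 and 107 to 63.0, 79.1 and 80.4 (-0.92 ± 0.17, quantile -1.04), and WDR74 gave -0.75 ± 0.15, quantile -0.92. Cytosolic ribosomal proteins moved less: 0 of 34 measured members rose and 1 fell (quantile 0 and 8), with a median difference of -0.01, quantile -0.14, the fall in deposited values being RPL29 (-0.69 ± 0.14, quantile -0.79). In turn without each array, the quantile count of falls was 5 without E replicate 1, 4 without E replicate 2 or DMSO replicate 1 and 3 without DMSO replicate 2. The RNA exosome, which trims and degrades nuclear RNA, was picked after the values were seen: 5 of 10 subunit genes fell (quantile 7) and 0 rose. EXOSC5 went from 493, 541 and 423 to 253, 297 and 309 (-0.76 ± 0.14, quantile -0.84, limma adjusted p = 0.000175) and EXOSC4 gave -0.66 ± 0.13, quantile -0.76. After dropping arrays one by one, the count of falls was 2 without E replicate 1 or DMSO replicate 1 and 3 without DMSO replicate 2. Mitochondrial ribosomal proteins, also picked afterwards, had 14 of 73 members that fell and 3 that rose (quantile 36 and 4), with a median of -0.14, quantile -0.24. MRPL54 (-0.87 ± 0.14, quantile -0.97) and MRPS35 (-0.71 ± 0.13, quantile -0.81) fell, and MRPS17 (0.62 ± 0.13, quantile 0.53) rose. Across the left-out arrays, the count of rises was 1 without DMSO replicate 3. The count of falls was 5 without E replicate 1 or DMSO replicate 2, 9 without E replicate 2 and 6 without DMSO replicate 1. The quantile count of rises was 2 without E replicate 2, DMSO replicate 2 or DMSO replicate 3. The number of falls after quantile normalization was 23 without DMSO replicate 3. In the mitochondrial import families, picked in the same way, 3 of 23 fell (quantile 16) and 0 rose, led by TIMM50 (-1.0 ± 0.15, quantile -1.11), a receptor of the inner membrane translocase. With single arrays left out, the count of falls was 5 without E replicate 3 or DMSO replicate 3. The number of falls after quantile normalization was 10 without DMSO replicate 2 or DMSO replicate 3. The respiratory chain list did not share this shift: of 18 measured members 2 rose and 1 fell in deposited values (quantile 2 and 1). Leaving out 1 array at a time, the count of rises was 1 without E replicate 2, E replicate 3 or DMSO replicate 3. The count of falls was 0 without DMSO replicate 2. The quantile count of rises was 0 without E replicate 1, E replicate 2 or DMSO replicate 1 and 1 without DMSO replicate 2. In deposited values those that rose were COX6C (0.48 ± 0.13, quantile 0.29) and UQCRC1 (0.41 ± 0.13, quantile 0.34) and the one that fell was CYC1 (-0.50 ± 0.13, quantile -0.55), and CYC1 and UQCRC1 are the genes whose calls were lost.

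Cell cycle lists differed, and they and the cell death list are set against all genes, of which 20.8% rose and 4.81% fell (quantile 15.1% and 16.3%). Among CDK inhibitors, G1 cyclins and their regulators 3 of 20 measured members rose and 5 fell (quantile 3 and 8), with a median difference of 0.01, quantile -0.11. CDKN3, a CDK phosphatase, rose (1.09 ± 0.13, quantile 1.05), and for cyclin D2, CCND2, the brighter probe set gave 1.76 and a second 0.24. MYC, E2F3 (-0.67 ± 0.17, quantile -0.75), cyclin E2, CCNE2 (-0.69 ± 0.17, quantile -0.87) and the phosphatase CDC25A (-0.57 ± 0.15, quantile -0.73) fell. CCND1, cyclin D1, gave 0.0039 ± 0.14, quantile -0.06 (limma adjusted p = 0.988). In DNA replication 2 of 17 measured members rose and 1 fell (quantile 2 and 5), with a median difference of -0.02, quantile -0.09, with GINS4 (1.21 ± 0.15, quantile 1.01) and MCM5 (-0.58 ± 0.15, quantile -0.68) in opposite directions, which is below the 20.8% of all genes that rose and near the 4.81% that fell. In turn without each array, the number of falls after quantile normalization was 3 without E replicate 1, E replicate 3, DMSO replicate 1 or DMSO replicate 2. In the mitosis list 10 of 32 measured members rose and 0 fell (quantile 9 and 2), with a median difference of 0.25, quantile 0.16, with the mitotic kinase CDK1 (0.62 ± 0.15, quantile 0.49) and the checkpoint kinase BUB1 (0.56 ± 0.14, quantile 0.45) among those that rose. Other genes known from work on class I inhibitors did not all move: CLU, clusterin, rose from 15.6, 20.1 and 16.1 to 66.0, 54.9 and 53.6 (1.75 ± 0.14, quantile 1.32), while GSN (0.14 ± 0.16, quantile 0.02, adjusted p = 0.586), BMF (0.29 ± 0.17, quantile 0.02, 0.239) and TYMS (-0.21 ± 0.13, quantile -0.28, 0.250) did not pass. CTPS1 gave -0.23 ± 0.15, quantile -0.37 and passed only after quantile normalization (adjusted p = 0.00443), and BMF passed without E replicate 1 (0.0342). Few regulators of cell death passed: 2 of 24 measured members rose and 0 fell (quantile 2 and 3), with a median difference of 0.15, quantile -0.12, PMAIP1 (1.26 ± 0.15, quantile 0.87) and BCL2L11 (0.61 ± 0.15, quantile 0.51) being those that rose. After dropping arrays one by one, the count of rises was 5 without E replicate 1.

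Markers of other cell types were followed beside these groups. The 5 measured neuron markers summed to 135 to 147 in DMSO and 574 to 718 in E, and STMN2 and DCX were not above background in either group. The 3 measured blood markers went from 64.7 to 68.2 up to 269 to 343, which is the rise of CSF1R and of CD14 (1.11 ± 0.15, quantile 0.73), with TYROBP not above background. Epithelial markers summed to 156 to 217 and 258 to 279, and fibroblast markers to 30.0 to 34.5 and 43.1 to 49.4, with LUM and DCN not above background in either. Endothelial markers, at 40.3 to 55.4 and 49.6 to 53.6, overlapped. The cultures are of 1 line, and the part of any other cell type in these rises was not tested.

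The same drug on top of dabrafenib plus trametinib was measured on arrays that share none with E and DMSO. After quantile normalization most of the genes that rose or fell in E differed in the same direction there. Array medians were 22.9 to 25.1 in DTE and 31.4 to 34.4 in DT, so this comparison is given after quantile normalization. On that scale 16.4% of all genes were higher and 17.9% lower in DTE than in DT. The counts that follow depend on this scaling and were not made in deposited values, which were lower in DTE as a whole. Single genes such as MYC, MITF and PCDHB5 changed sign between the scales. Of the 2040 genes that rose in both scales in E, 1477 (72.4%) were higher in DTE than DT and 32 were lower. Of the 699 that fell, 562 (80.4%) were lower and 5 higher, and of the 354 that rose 2-fold, 338 (95.5%) were higher. Across 14582 genes the 2 differences correlated at r = 0.779 (Spearman 0.668), a description over genes that are not independent. All 15 largest rises were higher in DTE than DT, with STC1 at 4.44 and TSPAN13 at 3.90, and 13 of the 15 largest falls were lower.

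**Figure D5:**
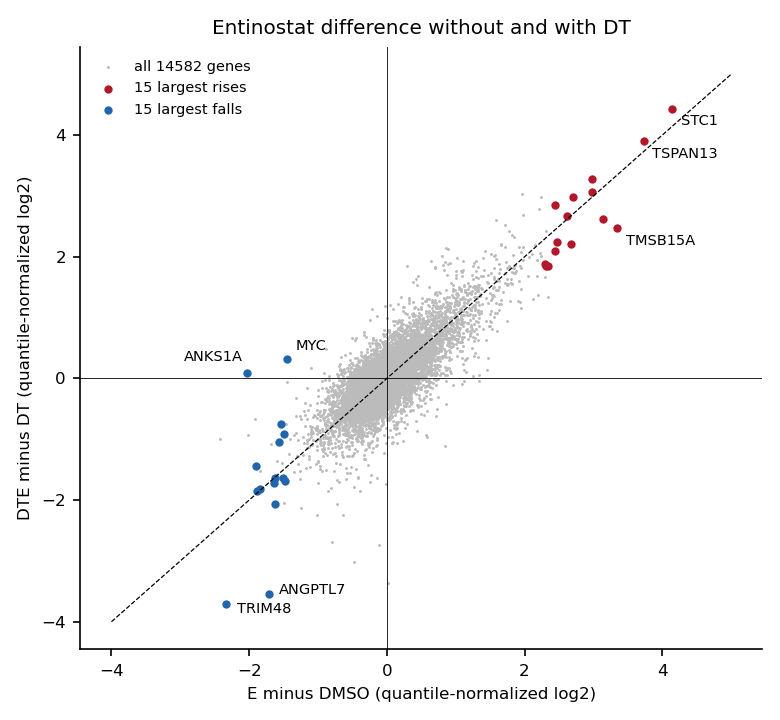
Quantile-normalized log2 difference of DTE minus DT against that of E minus DMSO for 14582 genes (grey), with the 15 largest rises (red) and 15 largest falls (blue) of E, and a dashed line where both are equal. The 15 rises lie above 0 on both axes, and ANKS1A (0.08) and MYC (0.33) are the falls that do not lie below 0 on the vertical axis.

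The exceptions among the falls were ANKS1A and MYC. ANKS1A read 135, 118 and 136 in DT and 77.7, 79.2 and 90.3 in DTE, a quantile-normalized difference of 0.08 (limma adjusted p = 0.544), while in deposited values, lower in DTE as a whole, it was -0.66. MYC read 47.8, 36.0 and 39.5 in DT and 30.1, 33.3 and 39.8 in DTE, a quantile-normalized difference of 0.33 (adjusted p = 0.0267) against -0.26 in deposited values. The direction in DTE against DT therefore turned with the scaling for MYC, and its groups overlapped. In DT both genes already lay below their E levels. The interaction, the DTE minus DT difference less the E minus DMSO difference, was 2.12 for ANKS1A (adjusted p = 2.97e-06) and 1.78 for MYC (7.39e-05), and in deposited values 1.30 (0.000172) and 1.10 (0.000862). It passed upward in 303 genes (2.08%) and downward in 309 (2.12%) after quantile normalization. ANKS1A and MYC are among the largest falls in E, and the interaction subtracts that difference, so their choice favours a positive value. ANGPTL7 differed the other way (-1.83, adjusted p = 0.000398), with 2653, 2404 and 2747 in DT and 133, 170.0 and 111 in DTE. The lineage factor MITF, lower in E on the quantile scale, was higher in DTE than DT on that scale (0.63; interaction 1.09, adjusted p = 0.000235), but the interaction in deposited values was 0.29 and did not pass (adjusted p = 0.236), and its intensities overlapped, at 126, 116 and 124 in DT and 104, 114 and 124 in DTE, a deposited difference of -0.09. KAT2B (-1.07), KAT6B (-1.01), ERBB3 (-1.28) and ELOVL2 (2.42) kept their direction in DTE against DT. Of the 15 beta protocadherins that rose in E, 6 were higher in DTE than DT, and the interaction was negative and passed in PCDHB3, PCDHB5, PCDHB7, PCDHB12 and PCDHB14. For PCDHB5 the intensities were 360.0, 335 and 329 in DT and 313, 341 and 333 in DTE, a quantile-normalized difference of 0.63 against 1.45 in E, and of -0.05 in deposited values.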

How the data were processed

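The series holds 12 Affymetrix arrays of SK-MEL-2 RNA in 4 groups of 3. The authors deposited 1 linear intensity per probe set and array (lowest 2.35, highest 8595), and per the submitters' processing notes RMA and the Transcriptome Analysis Console were used, with no version. How RMA values came to a linear scale is not stated there. Every array column matched 1 sample title, and 0 columns were left unmapped.

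From these values log2 was taken with no offset and no filter. Of 29398 probe sets, 14750 (50.2%) were named by the platform annotation, and the brightest probe set stood for each of 14582 genes. One mean per group was fitted over all 12 arrays with limma 3.58.1 in R 4.3.3 (8 residual degrees of freedom), p-values were adjusted by Benjamini-Hochberg over all genes, and the threshold was 0.05. The same fit was made after quantile normalization. An array's background was estimated as the 95th percentile of its dimmest 25% of genes; a group mean at or below it gave only a bound on the fold, and the number of arrays limits the precision. Summaries used Python 3.11.15 with scipy 1.17.1.

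Genes were named by a rule. It took the 15 largest rises and 15 largest falls in deposited values among genes that passed in both scales. Their higher group mean, of E or DMSO, lay above the median gene, and the groups did not overlap in either scale. It also took up to 4 members of each list by adjusted p in each direction and its defining member. Last came 13 genes known from class I inhibitors, of which 11 were measured. Others were named as exceptions or examples after their values were seen. The members and lists were chosen with earlier results of these data known. Alternatives were other scalings, blocks, filters, weights and leaving out each array. On simulated data for E against DMSO over 14582 genes, 100% of genes changed by a log2 of 1 were called, 28% of those raised by 0.5 and 34% of those lowered by 0.5, and 6 of 14382 unchanged genes. The simulation changed far fewer genes than were called in the data and held no shift in array level, so these shares need not hold for the data.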

Additional observations from a re-analysis of the deposited data

Results flagged for a closer look

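The entinostat difference was not the same with dabrafenib plus trametinib as without for several of the genes described, by the interaction of the limma fit on quantile-normalized values (adjusted p under 0.05, 3 arrays in each of 4 groups). Over all 14582 genes this interaction passed in 612 (4.20%). Many of the genes described were chosen for their E minus DMSO difference, which the interaction subtracts. That choice favours interactions of the opposite sign. Each value is the DTE minus DT difference less the E minus DMSO difference, in log2. It was positive for ANKS1A 2.12, CDC25A 0.80, CTPS1 0.51, ELOVL2 0.65, FASN 0.65, IL16 0.58, MCM5 0.84, MITF 1.09, MT1X 0.98, MYC 1.78, PHF19 0.79, RHOJ 0.53, TIMM50 0.67 and TSPAN2 0.83. It was negative for ANGPTL7 -1.83, CD14 -1.23, FOXD3 -1.90, MAP2 -0.63, PCDHB12 -0.65, PCDHB14 -0.63, PCDHB3 -0.64, PCDHB5 -0.82, PCDHB7 -0.57, PLXNB3 -0.88, PMEL -0.71, SPP1 -0.82, THBS1 -0.69 and TMSB15A -0.88. The quantile-normalized difference was -1.45 in E and 0.33 in DTE for MYC, -2.04 and 0.08 for ANKS1A, 0.73 and -0.50 for CD14, and -0.79 and -2.69 for FOXD3. In deposited values, which were lower in DTE as a whole, 16 of these 28 interactions also passed in the same direction, ANKS1A (1.30) and MYC (1.10) and all 14 negative ones. The other 12 did not pass, MITF among them (0.29, limma adjusted p = 0.236), and 5 of the 12, CTPS1, ELOVL2, FASN, RHOJ and TIMM50, changed sign.

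Probe sets with no gene name stand outside the counts above. A separate limma fit in deposited values took every probe set on its own, with p-values adjusted over all of them. It called 5103 of 29398 probe sets upward in E against DMSO and 1098 downward. Among the 14648 without a gene name the calls were 2195 upward and 453 downward. Of these calls, 469 upward and 75 downward reached 2-fold. The shares of calls were below the 20.8% and 4.81% of named genes, which came from the fit over genes.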

How the results depend on the processing

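Scaling, weights and the probe sets counted all moved the counts. The 3033 genes higher in E became 1699 with arrays centred on their medians, 5150 with array weights and 5103 over every probe set. The 701 lower became 2380 after quantile normalization, 3813 with median centring, 2321 with quantile normalization and a replicate block, 2076 with array weights and 1098 over every probe set. The 625 genes at least 2-fold higher became 354 after quantile normalization, 345 with centring, 354 with quantile normalization and the block, 308 with an offset of 16 before log2 and 1094 over every probe set. The 63 at least 2-fold lower became 95, 194, 95, 31 and 139 under the same settings. The cause of these moves was not tested, except that every probe set tests more features and an offset shrinks dim differences.

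Leaving out 1 array gave 2175 to 3867 higher, 411 to 933 lower, 542 to 777 higher 2-fold and 44 to 90 lower 2-fold. After quantile normalization, without E replicates 1 to 3 and then DMSO replicates 1 to 3, the counts were 1880, 1961, 1941, 1946, 1898 and 1921 higher, 1918, 1963, 1973, 1978, 1887 and 1946 lower, 351, 346, 355, 346, 346 and 347 2-fold higher and 89, 104, 101, 104, 87 and 100 2-fold lower. Of 233 named genes that passed, 190 kept the call without each array. CCND1, which did not pass in deposited values, passed downward with median centring, at -0.28 (limma adjusted p = 0.0303). Centring takes the 0.29 difference in array medians off the E minus DMSO difference of every gene. Replicate numbers did not pair the samples (correlations of deviations -0.16, 0.09 and -0.22), and the replicate block alone gave 2776 higher and 611 lower. The series has 3 arrays a group of 1 line, dim probe sets give only bounds, and 14648 probe sets had no gene name here.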
